A study of Rattus norvegicus with 52 samples.

Results

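The cytosolic ribosomal protein genes encode the proteins of the ribosomes that translate nuclear mRNA outside the mitochondria. They were taken from 2 Affymetrix chips, RAE230A and RAE230B, as all probe sets with a single gene symbol made of Rpl or Rps and a number, together with Rpsa and the stalk protein genes (Rplp) where present. Kinases and binding partners with like names and all mitochondrial Mrp genes were left out. This gave 54 probe sets of 47 genes among the 31256 probe sets of the chips, 48 on RAE230A and 6 on RAE230B. By their symbols 15 of the 47 genes belong to the small subunit, among them the pseudogene Rps4x-ps1, and 32 to the large subunit. A further 36 probe sets carried several ribosomal symbols and were no members, because their signal cannot be given to 1 gene.

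The values came from left kidneys of 26 male rats, 40 to 42 days old, with 1 rat per sample. There were 10 rats of the inbred Dahl salt-sensitive strain SS/jr (S), which becomes hypertensive when fed salt, and 8 rats each of its congenic strains ET3x1 and ET3x2. A congenic strain carries a chromosome segment of another strain, here of the salt-resistant R strain, on an otherwise S background, so that the S background was common to every group. All rats were weaned at 30 days onto a diet with 0.4% NaCl (low salt), and at 39 to 41 days some rats of every strain were switched to a 4% NaCl diet (high salt) for 24 hours. The 6 groups were S on low salt (5 rats), S on high salt (5 rats), and ET3x1 and ET3x2 on low and on high salt (4 rats each). Litters and batches are not named in the labels, and a congenic strain differs from S by its whole segment, not by a single gene.

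A ribosome is built from a small subunit, which reads the mRNA, and a large subunit, which joins the amino acids. Each holds ribosomal RNA and many proteins that are needed in equal numbers, and tubule cells, with their high content of transporters, need many of them. The mRNAs of ribosomal proteins typically begin with a 5′ terminal oligopyrimidine (TOP) tract, a C followed by a run of C and T, through which the kinase mTORC1 controls their translation, so that their mRNA levels are known to vary less than their translation. Most of these genes have processed pseudogenes, whose sequence can be nearly that of the mRNA, and the probe sets of this study cannot be assumed to tell every copy apart.

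The starts of the genes on which the results turn are printed to show this tract. Of the 47 genes 41 had an entry among 33469 RefSeq promoters of the GRCr8 build, each 300 bases long. The runs below are 30 bases, 15 before and 15 from the listed start on, read 5′ to 3′ on the gene's strand, and capitals mark the run of C and T that holds the start base.
Rps15, chr7:10068101-10068130, minus strand: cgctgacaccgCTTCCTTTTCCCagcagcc
Rplp0, chr12:46718376-46718405, minus strand: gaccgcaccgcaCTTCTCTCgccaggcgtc
Rpl39, chrX:121195882-121195911, minus strand: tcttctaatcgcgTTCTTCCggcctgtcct
Rpl27a, chr1:172974558-172974587, plus strand: cgagacttggtgggCTCCTCCCTCTTTCTT
Rps9, chr1:74430423-74430452, minus strand: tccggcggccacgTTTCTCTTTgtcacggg
Rpsa, chr8:128728864-128728893, plus strand: cctttccgcgctaCCCTggaacgggtccgt
Rps16, chr1:92770643-92770672, plus strand: cctggaaaatcggtcggggtggccccaagc
Rps28, chr7:15311319-15311348, minus strand: gcatcccctgctcacgtgactcctctccgc
Rpl13a, chr1:104748899-104748928, minus strand: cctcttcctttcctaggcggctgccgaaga
Rps6, chr5:106420526-106420555, minus strand: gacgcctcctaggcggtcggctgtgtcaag
The listed starts of Rps15, Rplp0, Rpl39, Rpl27a and Rps9 lay in a run of at least 5 such bases, that of Rpsa in a run of 4 and those of Rps16, Rps28, Rpl13a and Rps6 in none. Over all matched members, 21 of 41 starts (51.2%) lay in a run of at least 5 C or T bases, against 12.0% of all promoters. A start base C followed by 4 bases that were each C or T was present in 12 of 41 (29.3%), against 2.63% of all promoters. A listed start can lie some bases from the true one, and a start outside a run says only that these letters were not there.

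The deposited values were log2 intensities, with array medians between 7.47 and 7.52 on RAE230A and between 6.34 and 6.40 on RAE230B. Markers of kidney epithelium were bright: 6 proximal tubule markers lay at or above the 97.2 percentile of their chip, Umod and Slc12a1 (thick ascending limb) at 99.9 and 87.0, and 4 markers of the distal tubule and collecting duct between 72.2 (Scnn1g) and 99.0 (Calb1). Among podocyte markers Nphs1 was at 10.6, whereas Podxl, at 85.2, and Synpo lay above the median of their chip. Control probe sets differed between groups. The log2 ratio of the 3′ to the 5′ Gapdh control was 0.56 to 0.61 in ET3x1 rats on high salt and 0.73 to 0.87 in S rats on high salt, and the difference of the spiked controls bioD and bioC was 2.24 to 2.64 in ET3x2 and 3.03 to 3.22 in S rats on low salt. None of 28 such group differences passed an adjusted p of 0.05 in exact two-sided permutation tests, in which the smallest p possible for 4 against 5 rats was 0.0159 before adjustment and the smallest adjusted p was 0.0808. In whole kidney, fewer cells of a type and less RNA per cell cannot be told apart.

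Most ribosomal protein probe sets were among the brightest of the chips, and within groups the tested ones varied about as much as all tested probe sets. Of the 54, 38 lay in the brightest 5% of their chip, and 35 had a mean above 11 on the log2 scale. The 44 with a mean at or above their chip's median were tested, 14 of the small and 30 of the large subunit, from 41 genes. Their standard deviation within groups had a median of 0.12 on the log2 scale, against 0.13 for all 15473 tested probe sets and 0.15 for the other 1421 in the brightest 5%. The least variable was Rpl27a (0.059), a protein of the large subunit. The most variable was a probe set of Rpsa (0.24), the small-subunit protein also known as the laminin receptor. The 10 untested probe sets were Rpl28, Rpl30, the muscle paralog Rpl3l, Rps27l, Rps4y2, the pseudogene Rps4x-ps1 and second probe sets of Rpl14, Rpl24, Rpl7 and Rps24, with means from 3.95 to 6.95.

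Each rat was also described by the median, over the 44 probe sets, of its log2 difference from the mean of the 10 S rats. S rats on low salt had medians of -0.17, -0.08, 0.03, -0.11 and 0.05. S rats on high salt had medians of 0.10, 0.08, 0.13, 0.02 and -0.01. The S rats on low salt spread most, and their lowest rat had 5 of 44 probe sets above the S mean, whereas 2 others had 29 each. ET3x1 rats lay between 0.01 and 0.11 on low salt and between -0.04 and 0.10 on high salt. ET3x2 rats lay between -0.08 and 0.10 on low salt and between -0.01 and 0.12 on high salt. All groups overlapped in this median.

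**Figure D1:**
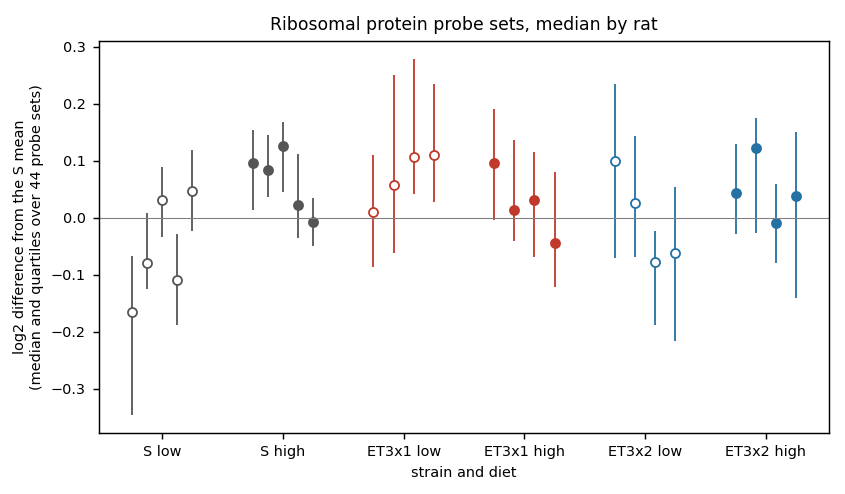
Median (points) and quartiles (bars) of the log2 difference from the mean of the 10 S rats over the 44 tested ribosomal protein probe sets, 1 point per rat, open for low and filled for high salt. The 5 S rats on low salt run from -0.17 to 0.05, and the 6 groups overlap.

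**Figure D2:**
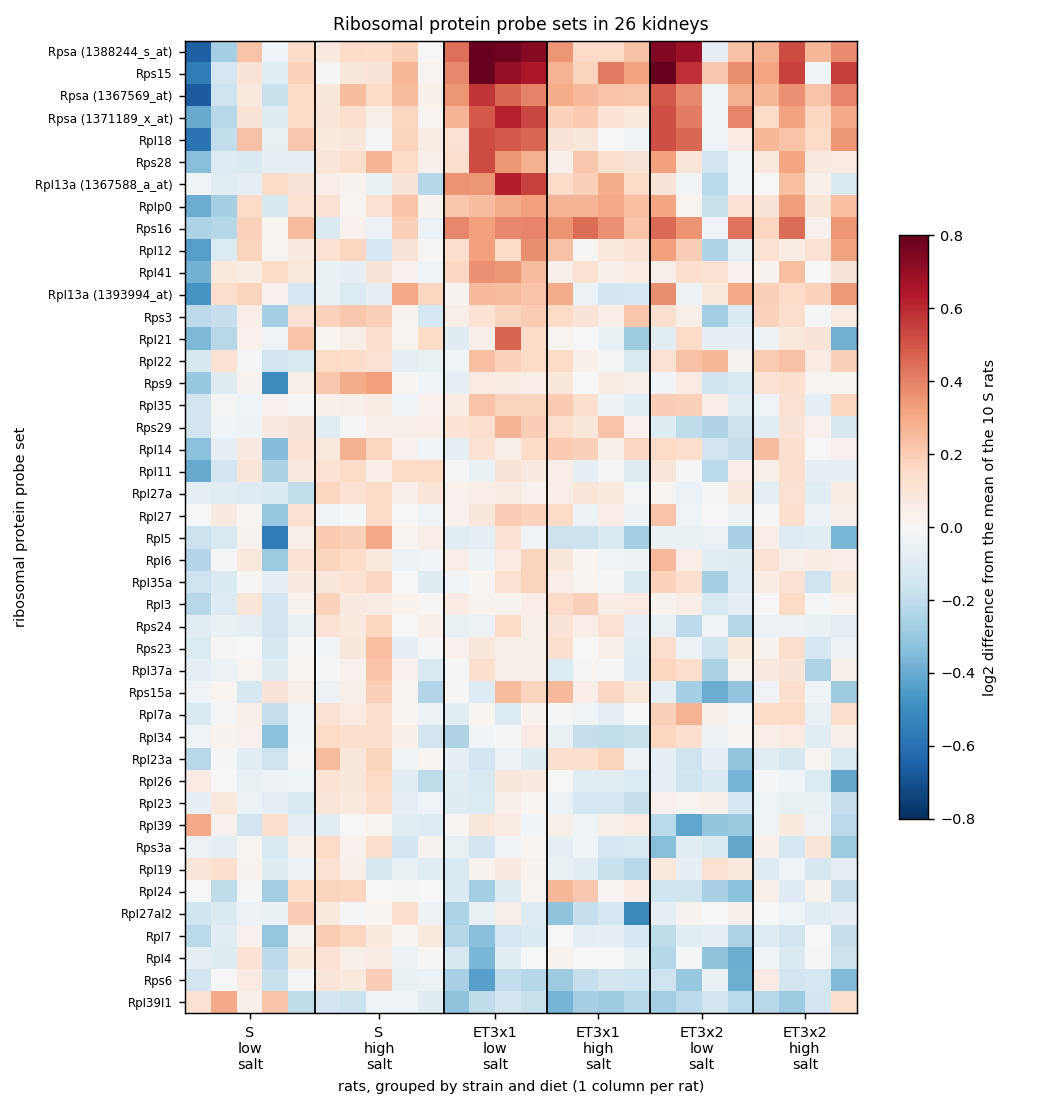
Log2 difference of each tested ribosomal protein probe set (rows, ordered by the change of ET3x1 against S on low salt) from the mean of the 10 S rats, with 1 column per rat. The top rows, led by Rpsa and Rps15, are highest in ET3x1 rats on low salt, and most other rows are pale.

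The strains were compared with S within each diet, with rats as replicates, and a probe set was called when limma's p-value after Benjamini-Hochberg adjustment over both chips was below 0.05. Changes are log2 differences ± the standard error of the fit. Both congenic strains were compared with the same S rats, so their changes are not independent of each other. On low salt, 13 of the 44 ribosomal protein probe sets, from 11 genes, were higher and 2 lower in ET3x1 than in S. Over all tested probe sets 16.7% were higher and 10.1% lower, and 26.8% were called in either direction. Among the other 1421 probe sets in the brightest 5% of the chips 23.6% were higher, and the difference of the members from these shares was not tested. The median change was 0.14 over the members, 0.02 over all tested probe sets and 0.08 over those other bright ones. Of the 14 small-subunit probe sets 7 were higher and 1 lower, and of the 30 large-subunit probe sets 6 were higher and 1 lower. The 7 hold all 3 probe sets of 1 gene, Rpsa, so these counts are not counts of genes.

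Rpsa carried the largest change. Its probe set of smallest p (1388244_s_at) stood at 10.15, 10.54, 11.03, 10.78 and 10.95 in the S rats on low salt. It stood at 11.24, 11.69, 11.58 and 11.53 in the ET3x1 rats on low salt. Every ET3x1 rat was above every S rat, and the change was 0.82 ± 0.15, or 1.77-fold (adjusted p = 0.000457). The other Rpsa probe sets gave 0.60 ± 0.11 (adjusted p = 0.000696) and 0.57 ± 0.10 (adjusted p = 0.000484). The suffixes of this and the last of these probe sets mark probes that can match several transcripts, whereas 1367569_at, with the 0.60, has the plain suffix. S rat 1 was the lowest of all, and without it the change of 1388244_s_at was 0.69 (adjusted p = 0.00133).

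Rps15, a small-subunit protein needed for the export of that subunit from the nucleus, was the next. S rats on low salt had 10.51, 10.94, 11.18, 10.98 and 11.26. ET3x1 rats had 11.46, 11.91, 11.77 and 11.73, all above the S rats. The change was 0.74 ± 0.14 (1.67-fold, adjusted p = 0.000718). Rps28, which lies near the mRNA exit of the small subunit, stood at 10.72, 10.95, 10.95, 10.99 and 10.99 in the S rats. The ET3x1 rats had 11.20, 11.58, 11.42 and 11.34, again with no overlap, and the change was 0.47 ± 0.09 (adjusted p = 0.000708). Rps16, whose tail reaches toward the tRNA in the decoding site, was higher by 0.38 ± 0.10 (adjusted p = 0.00987) and ran from 12.36 to 12.42 in ET3x1 against 11.78 to 12.28 in S rats. Rps29, a zinc-binding protein, was higher by 0.18 ± 0.06 (adjusted p = 0.0258).

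Among large-subunit genes, Rpl18 was higher by 0.48 ± 0.13 (adjusted p = 0.00733). Rplp0, the stalk protein that anchors the acidic P proteins and a frequent reference gene in PCR, stood at 11.32, 11.45, 11.87, 11.59 and 11.84 in S rats on low salt. It stood at 11.94, 11.96, 12.01 and 12.04 in ET3x1 rats, all above the S rats, and the change was 0.38 ± 0.09 (adjusted p = 0.00542). Rpl13a, a large-subunit protein that can also act outside the ribosome in silencing inflammatory mRNAs, had 10.76, 10.70, 10.71, 10.94 and 10.89 in S rats. The ET3x1 rats had 11.14, 11.13, 11.41 and 11.33, with no overlap and a change of 0.45 ± 0.08 (adjusted p = 0.000696). Its dim second probe set (1393994_at) gave 0.24 ± 0.12 and was not called (adjusted p = 0.119). Rpl41, a very short peptide, Rpl12, of the stalk base, and Rpl27a were the other members higher, by 0.28 ± 0.08, 0.31 ± 0.11 and 0.16 ± 0.05.

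2 probe sets were lower in ET3x1 on low salt. Rps6, the substrate of the S6 kinases downstream of mTORC1, stood at 12.35, 12.49, 12.57, 12.32 and 12.49 in S rats. It stood at 12.24, 12.07, 12.30 and 12.27 in ET3x1 rats, all below the S rats, with a change of -0.22 ± 0.08 (adjusted p = 0.0396). Rpl39l1, a paralog by name of the exit tunnel protein Rpl39, changed by -0.31 ± 0.08 (adjusted p = 0.00884). Its probe set was dim, from 6.31 to 6.49 in ET3x1 against 6.43 to 6.93 in S rats, near the chip median of 6.38. By rats that did not overlap, 13 members were higher and 1 lower, against 12.2% and 7.51% of all tested probe sets.

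The call of Rps6 was lost in 6 of the 26 fits that left out 1 rat. It was also lost with centred array medians and in a fit of the compared groups alone. The same held with the Gapdh ratio as a covariate (adjusted p = 0.0527) and with the bioD minus bioC difference (adjusted p = 0.0720). That difference was 2.42 to 3.02 in ET3x1 and 3.03 to 3.22 in S rats. Leukocyte markers were higher too, 6 of 7 tested with a median change of 0.48, and their summed level (log2) was 12.84 to 13.15 in ET3x1 and 12.38 to 12.73 in S rats on low salt. Markers of other cells moved too: both tested podocyte markers were lower, with a median of -0.43, and so was 1 of 3 endothelial markers, Kdr (-0.49). Of 6 proximal tubule markers Aqp1 (0.41), Slc5a2 (0.35) and Slc34a1 (0.22) were higher and Lrp2 (-0.33) and Cubn (-0.25) lower, and of 4 distal markers Scnn1g (-0.34) was lower. The part of these measures in the ribosomal protein results was not tested.

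**Figure D3:**
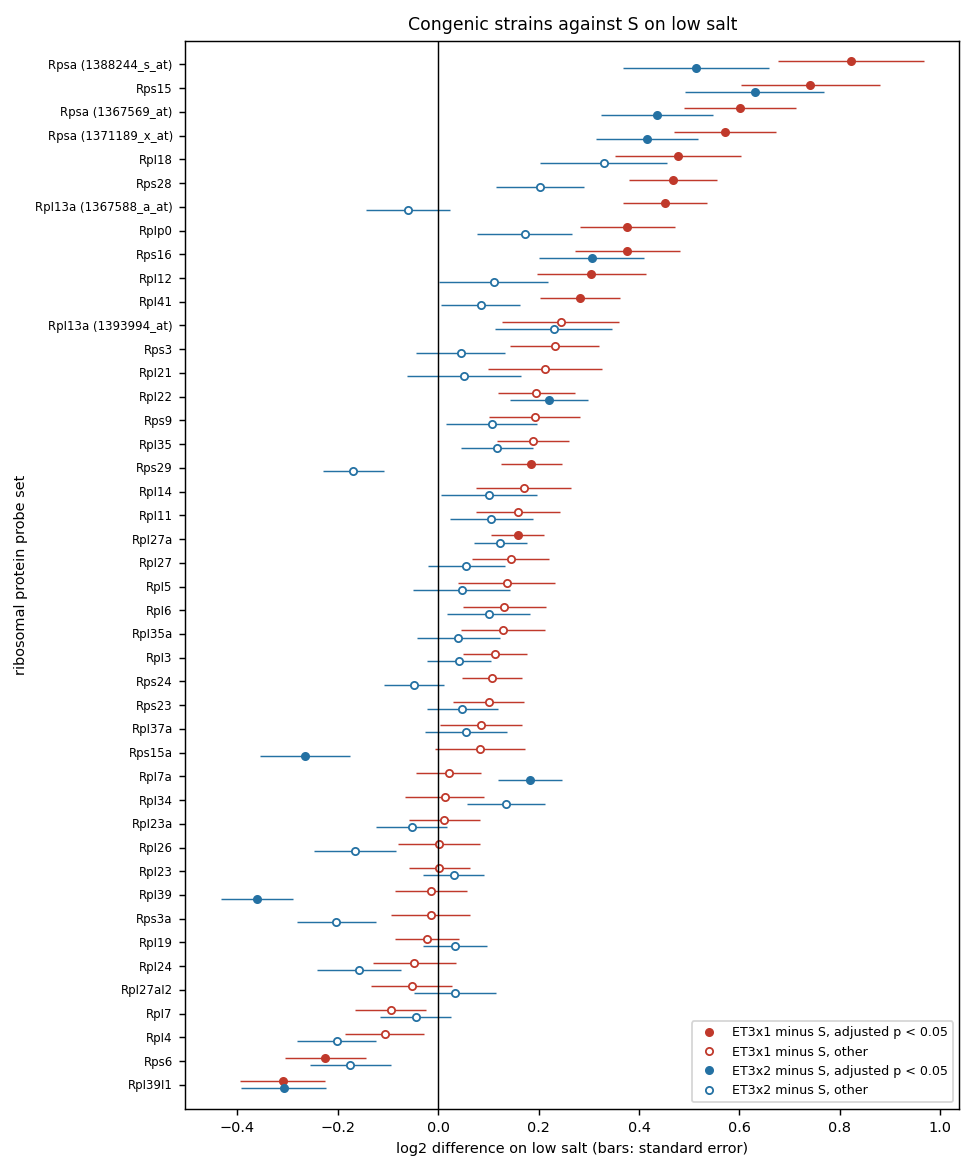
Log2 difference from S on low salt for each tested ribosomal protein probe set in ET3x1 (red) and ET3x2 (blue), with the standard error as bars; filled points had an adjusted p below 0.05. Rpsa and Rps15 lie farthest right in both strains, Rpl13a (1367588_a_at), Rps28 and Rplp0 are filled in ET3x1, and Rpl39 and Rps15a are filled on the left in ET3x2.

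In ET3x2 on low salt, 7 probe sets were higher and 3 lower than in S, where 9.49% of all tested probe sets were higher, 8.71% lower and 18.2% called in either direction. The median change was 0.05 over the members and 0.02 over all tested probe sets. Rps15 stood at 12.03, 11.66, 11.29 and 11.44, all above the S rats, with a change of 0.63 ± 0.14 (1.55-fold, adjusted p = 0.00302). All 3 Rpsa probe sets were higher, with 0.42 ± 0.10 for that of smallest p (1371189_x_at, adjusted p = 0.00634), which stood at 10.20, 10.09, 9.65 and 10.07 in ET3x2 and from 9.28 to 9.83 in S rats. ET3x2 rat 3 lay within the S rats for Rpsa. Rps16 changed by 0.31 ± 0.10 (adjusted p = 0.0406), Rpl22, an RNA-binding large-subunit protein, by 0.22 ± 0.08 (adjusted p = 0.0460), and Rpl7a by 0.18 ± 0.06 (adjusted p = 0.0477).

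Rpl39, a small protein that lines the exit tunnel of the growing peptide, was lower. S rats on low salt had 8.63, 8.36, 8.18, 8.47 and 8.25. ET3x2 rats had 8.11, 7.91, 8.01 and 8.03, all below the S rats, with a change of -0.36 ± 0.07 (1.28-fold lower, adjusted p = 0.00151). Rpl39l1 was lower by a like amount, -0.31 ± 0.08 (adjusted p = 0.0128), and Rps15a, a small-subunit protein, changed by -0.27 ± 0.09 (adjusted p = 0.0402). By rats that did not overlap, 2 members were higher and 2 lower, against 5.29% and 7.10% of all tested probe sets.

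The count of 10 called members rested on single rats. It was 4 without ET3x2 rat 1 on low salt and 6 without S rat 1 on low salt. It was 5 with the Gapdh ratio as a covariate, 4 with the bioD minus bioC difference and 2 in a fit of the compared groups alone, and Rps15, Rpsa (1371189_x_at), Rpl39 and Rpl39l1 kept their calls with both covariates. In the 26 fits that left out 1 rat, Rps15, Rpsa and Rpl39 were always called, Rpl39l1 was not called without ET3x2 rat 1 on low salt, and the calls of Rps16, Rpl22 and Rps15a were lost in 6, 13 and 7 fits. Leukocyte markers were higher in 6 of 7, with a median of 0.37 and a summed level (log2) of 12.61 to 13.24 against 12.38 to 12.73 in S rats. Both tested podocyte markers were lower (median -0.27), and so was 1 of 3 endothelial markers, Kdr (-0.64). Of 6 proximal tubule markers Lrp2 (-0.55) and Cubn (-0.33) were lower, and the median over the 6 was 0.07. Of 2 markers of the thick ascending limb Slc12a1 (-0.74) was lower. No other marker of these lists was called, and the part of the leukocyte and other markers was not tested.

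On high salt fewer members were called. In ET3x1, 1 was higher and 3 lower than in S, where 14.5% of all tested probe sets were called in either direction. Rps16 was higher by 0.35 ± 0.10 (adjusted p = 0.0266), with 12.39, 12.48, 12.39 and 12.26 in ET3x1 against 11.92, 12.06, 11.98, 12.22 and 11.98 in S rats, and no overlap. Rps6 changed by -0.25 ± 0.08 (adjusted p = 0.0374) and Rpl27al2, a paralog by name of Rpl27a, by -0.33 ± 0.08 (adjusted p = 0.00902). Rpl5, which with Rpl11 carries the 5S ribosomal RNA into the large subunit, had 12.09, 12.09, 12.14 and 11.98 in ET3x1. It had 12.46, 12.45, 12.56, 12.28 and 12.31 in S rats, all higher, and the change was -0.34 ± 0.10 (adjusted p = 0.0202). These 4 calls became 0 with the Gapdh ratio or the bioD minus bioC difference as a covariate, both of which separated the groups on high salt. The count was 1 without S rat 3 or ET3x1 rat 4 on high salt, and 2 without S rat 1, ET3x1 rat 2 or ET3x1 rat 3 on high salt. The call of Rps6 was lost in 7 of the 26 fits without 1 rat, that of Rps16 in 4, that of Rpl5 without S rat 3 or ET3x1 rat 4 and that of Rpl27al2 without ET3x1 rat 4. The Rpsa probe sets differed from S by 0.05 to 0.11 and Rps15 by 0.20 ± 0.14, none called.

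In ET3x2 on high salt, limma called 0 of 44 members, 8 had an unadjusted p below 0.05, and 4.25% of all tested probe sets were called. Array weights gave 1 call and so did leaving out S rat 4 on low salt. Rps15 was at 0.25 ± 0.14 (adjusted p = 0.303) and Rps16 at 0.25 ± 0.10 (adjusted p = 0.157). Rpl5, at -0.28 ± 0.10 (adjusted p = 0.0878), had the largest absolute change of the members here.

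Averaged over the diets, 10 members were higher and 4 lower in ET3x1 than in S (32.3% of all tested probe sets called), and 7 were higher and 6 lower in ET3x2 (28.5% called). The members higher in each strain include all 3 Rpsa probe sets, and these shares of members were near the background. The median changes over the members were 0.04 and 0.01, and those over all tested probe sets -0.00 and 0.01. Rps15 was higher by 0.47 ± 0.10 in ET3x1 (adjusted p = 0.000973) and by 0.44 ± 0.10 in ET3x2 (adjusted p = 0.00206). Rpsa was higher by 0.47 ± 0.10 (1388244_s_at, adjusted p = 0.00149) and 0.28 ± 0.07 (1371189_x_at, adjusted p = 0.00589). Both were called in every fit that left out 1 rat, and so was Rps16. Rps16 was higher by 0.36 ± 0.07 (adjusted p = 0.000811) and 0.28 ± 0.07 (adjusted p = 0.00713). Rps6 changed by -0.24 ± 0.06 (adjusted p = 0.00288) and -0.19 ± 0.06 (adjusted p = 0.0162), and Rpl39l1 by -0.25 ± 0.06 (adjusted p = 0.00272) and -0.17 ± 0.06 (adjusted p = 0.0320). The ET3x2 call of Rpl39l1 was lost in 7 of the 26 fits without 1 rat and with the beta-actin or bioD minus bioC covariate.

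Other members were called in 1 strain, a difference tested only in the direct comparison of the strains. Of those named here, only Rpl39, Rpl13a and Rps29 were also called in that comparison. For the others a call in 1 strain does not show that the strains differed. Rpl18 was at 0.22 ± 0.09 in ET3x1 (adjusted p = 0.0567), and its direct difference was 0.03 ± 0.09 (adjusted p = 0.866). On low salt it was called in ET3x1 and not in ET3x2 (0.33 ± 0.13, adjusted p = 0.0674). In ET3x2, Rpl18 (0.25 ± 0.09, adjusted p = 0.0353) and Rpl22 (0.17 ± 0.05, adjusted p = 0.0231) were higher. Rpl39 (-0.18), Rpl4 (-0.16), whose loop reaches into the exit tunnel, Rpl26 (-0.16), at the tunnel's mouth, and Rps3a (-0.16) were lower, each with a standard error of 0.05 to 0.06 and adjusted p from 0.0102 to 0.0393. Without ET3x2 rat 4 on high salt the ET3x2 count fell from 13 to 8, and the calls of Rps6, Rpl18, Rpl4, Rpl26 and Rps3a were among those lost. Over the 26 fits that left out 1 rat, those of Rpl18, Rpl4, Rpl26 and Rps3a were lost in 8, 7, 8 and 8. They were also lost under 4, 2, 3 and 5 of 11 other settings. In ET3x1, Rpl13a (0.34 ± 0.06, adjusted p = 0.000246), Rplp0 (0.27 ± 0.07), Rps28 (0.22 ± 0.06), Rpl41 (0.17 ± 0.06) and Rps29 (0.15 ± 0.04) were higher, and Rpl27al2 (-0.19 ± 0.06) and Rpl7 (-0.14 ± 0.05) lower, with adjusted p from 0.00346 to 0.0369 for the last 6 of these. The call of Rpl7 was lost in 10 of the 26 fits without 1 rat and with each of the 3 control covariates. The dim Rpl13a probe set 1393994_at was called in neither strain. It gave 0.09 ± 0.08 in ET3x1 (adjusted p = 0.411) and 0.20 ± 0.08 in ET3x2 (adjusted p = 0.0712). On high salt alone Rps28 in ET3x1 changed by -0.02 ± 0.09 and Rpl39 in ET3x2 by -0.002 ± 0.072, neither called. The averages of Rps28 and Rpl39 thus came from low salt.

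The strains were also compared directly, ET3x2 minus ET3x1 over both diets. Of the members 1 was higher and 4 lower in ET3x2, 5 of 44, where 11.1% of all tested probe sets were called. Rpl13a (1367588_a_at) was lower by 0.34 ± 0.06 on the log2 scale (-0.34, adjusted p = 0.00218), with 10.88, 10.76, 10.56 and 10.75 in ET3x2 against the 11.13 to 11.41 of ET3x1 rats on low salt. On high salt ET3x2 rats had 10.77, 11.02, 10.82 and 10.67 and ET3x1 rats 10.94, 10.97, 11.08 and 10.94, which overlapped. The dim second probe set of Rpl13a (1393994_at) went the other way, by 0.11 ± 0.09, and was not called (adjusted p = 0.436). Rps29 changed by -0.25 ± 0.05 (adjusted p = 0.00163), Rps15a by -0.27 ± 0.07 (adjusted p = 0.0122) and Rpl39 by -0.22 ± 0.05 (adjusted p = 0.0129). Rpl7a was higher by 0.15 ± 0.05 (adjusted p = 0.0495). Quantile normalization gave 8 calls but not those of Rps29 and Rps15a, and the Gapdh ratio as a covariate gave 3. The call of Rpl7a was lost in 17 of the 26 fits that left out 1 rat, and those of the other 4 in none.

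**Figure D4:**
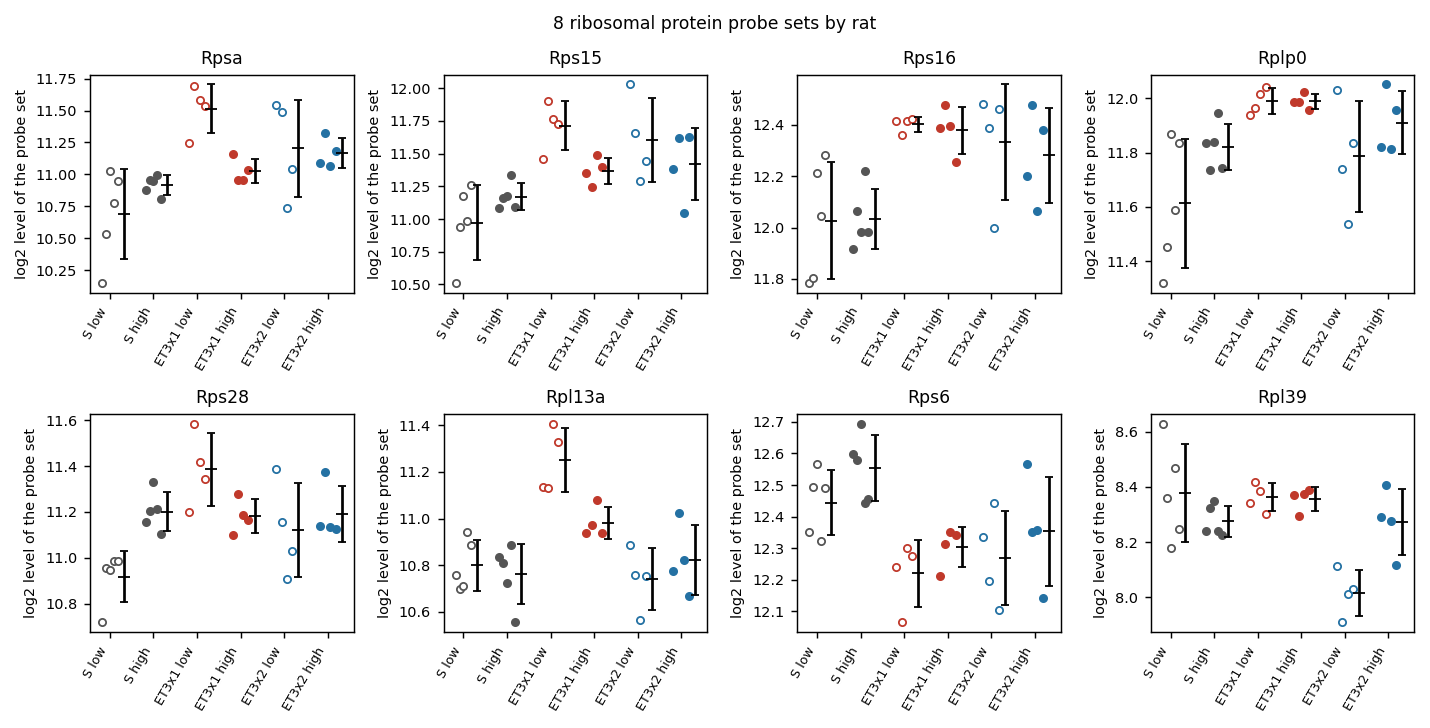
Log2 level in every rat (points, open for low and filled for high salt) of 8 ribosomal protein probe sets, with group mean ± SD beside the points; Rpsa is 1388244_s_at and Rpl13a is 1367588_a_at. Rpsa, Rps15 and Rps28 have their highest mean in ET3x1 on low salt, Rpl39 has its lowest in ET3x2 on low salt, and Rps16 is above the S rats of the same diet in ET3x1.

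Salt for 24 hours moved few members. Averaged over the 3 strains, 4 members were higher and 0 lower on high salt, where 14.5% of all tested probe sets were called and limma found 11 members with an unadjusted p below 0.05. Rpl24, which joins the large subunit late and bridges to the small one, was higher by 0.19 ± 0.05 (adjusted p = 0.0104). Rps9, near the mRNA entry, was higher by 0.16 ± 0.05 (adjusted p = 0.0378). Rpl23a, the docking site of the signal recognition particle, was higher by 0.15 ± 0.04 (adjusted p = 0.0128) and Rpl7 by 0.13 ± 0.04 (adjusted p = 0.0347). The dim second probe sets of Rpl7 and Rpl24, fitted only with no filter, gave -0.10 ± 0.09 and 0.04 ± 0.05, neither called. The calls of Rps9 and Rpl7 were lost in 14 and 10 of the 26 fits that left out 1 rat, and with quantile normalization or no filter. Rpl24 and Rpl23a were called in each of the 26, but the call of Rpl23a was also lost with quantile normalization. The count became 0 with the Gapdh or the beta-actin ratio as a covariate. It became 7 without S rat 5 on low salt. It was 2 without S rat 2, ET3x1 rat 3 or ET3x2 rat 1 on high salt, or ET3x2 rat 4 on low salt. Cell markers moved too: 5 of 6 markers of dividing cells (median 0.30), 1 of 7 leukocyte and 1 of 4 distal markers were higher. Both tested podocyte markers (median -0.17) and 2 of 3 endothelial markers (median -0.16) were lower. The part of these markers was not tested.

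Within S, 38 of 44 members had a positive change, with a median of 0.12, and 2 were called higher and 0 lower, where 2.78% of all tested probe sets were called. Of all 15473 tested probe sets 9138 were positive, with a median of 0.03, and of the other 1421 in the brightest 5% 1044 were positive, with a median of 0.09. Rpl27a stood at 12.48, 12.46, 12.44, 12.43 and 12.35 on low salt and at 12.72, 12.66, 12.70, 12.59 and 12.65 on high salt. The groups did not overlap, and the change was 0.23 ± 0.05 (adjusted p = 0.0123). Rps9 stood at 11.64, 11.85, 11.97, 11.44 and 11.99 on low salt and at 12.16, 12.24, 12.27, 11.96 and 11.92 on high salt, which overlapped, with a change of 0.33 ± 0.09 (adjusted p = 0.0321). S rats 1 and 2 on high salt stood apart in the bioD minus bioC difference, with 1.77 the lowest of all groups, and without both the count was 0. Without S rat 5 or rat 3 on low salt it was 8 or 6. It was 1 without any one of rats 1, 2 and 3 on high salt or rats 1 and 4 on low salt. Rps9 was then not called. In S 2 of 7 leukocyte markers (median 0.20) and 1 of 6 markers of dividing cells (median 0.31) were higher on high salt. Their part was not tested.

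Within ET3x1 the members leaned the other way: 32 of 44 had a negative change, with a median of -0.07, beside 8863 of all 15473 with a median of -0.03, and 1 was called higher and 3 lower, where 15.9% of all were called. Rpsa was lower on high salt in 2 probe sets, by -0.49 ± 0.15 (1388244_s_at, adjusted p = 0.0303) and by -0.33 ± 0.11 (1371189_x_at, adjusted p = 0.0348). The probe set with the plain suffix, 1367569_at, gave -0.19 ± 0.12 and was not called (adjusted p = 0.276). The high-salt rats of 1388244_s_at had 11.16, 10.95, 10.95 and 11.04, all below the low-salt rats. Rpl13a changed by -0.27 ± 0.09 (adjusted p = 0.0383) and Rpl24 by 0.26 ± 0.09 (adjusted p = 0.0473). The count was 0 with the Gapdh ratio, which differed by -0.28 between these diets, or the bioD minus bioC difference as a covariate. Leaving out single ET3x1 rats gave 8 without rat 1, 1 without rat 2, 0 without rat 3 and 1 without rat 4 on low salt, and 2, 1, 2 and 1 without rats 1, 2, 3 and 4 on high salt. Within ET3x2 limma called 0 members, 3 had an unadjusted p below 0.05, and 0.304% of all tested probe sets were called. Leaving out ET3x2 rat 4 on high salt gave 1 call.

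The difference between the salt responses of ET3x1 and S was tested as an interaction. It was negative in 39 of 44 members, with a median of -0.18. It was negative in 9292 of all 15473 tested probe sets, with a median of -0.05, and in 883 of the other 1421 in the brightest 5%, with a median of -0.08. The median was -0.24 over 71 mitochondrial ribosomal protein genes (0 higher, 8 lower), -0.22 over 36 genes of ribosome assembly (0 higher, 5 lower) and -0.36 over 7 leukocyte markers (0 higher, 1 lower), and the part of the last in the result was not tested. In all, 4 members were called, all lower, where 5.49% of all were called, 1.42% higher and 4.08% lower. Rpsa gave -0.71 ± 0.21 (1388244_s_at, adjusted p = 0.0408) and -0.52 ± 0.14 (1371189_x_at, adjusted p = 0.0338), and its plain probe set 1367569_at, not called, -0.50 ± 0.16 (adjusted p = 0.0580). Rps28 gave -0.49 ± 0.12 (adjusted p = 0.0227) and Rpl5 -0.48 ± 0.14 (adjusted p = 0.0408). The S rats on high salt, other animals than those on low salt, did not overlap with them in Rps28, with 11.10 to 11.33 against 10.72 to 10.99, and in ET3x1 it was 11.10 to 11.28 on high against 11.20 to 11.58 on low salt. The count of 4 called members was not stable: it was 0 with the Gapdh ratio or the bioD minus bioC difference as a covariate and without S rats 1 and 2 on high salt. It was 0 without ET3x1 rat 2 or rat 3 on low salt, 7 without ET3x1 rat 1, S rat 3 or S rat 5 on low salt, and 1 or 2 without any one of S rats 1, 2, 3 and 4 on high salt, S rats 1, 2 and 4 on low salt, ET3x1 rats 2, 3 and 4 on high salt and ET3x1 rat 4 on low salt. The same difference for ET3x2 gave 0 calls by limma, with 4 unadjusted p-values below 0.05, where 0.0194% of all tested probe sets were called.

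**Figure D5:**
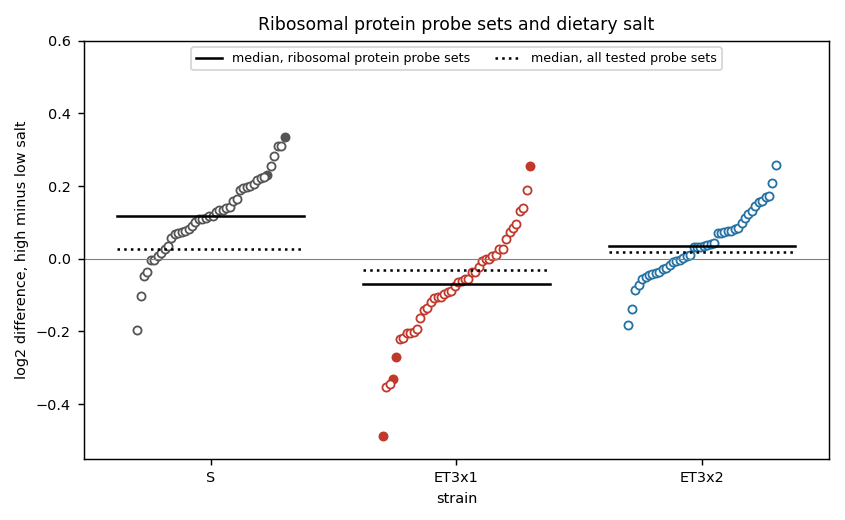
Log2 difference between high and low salt of the 44 tested ribosomal protein probe sets in each strain, sorted within the strain; filled points had an adjusted p below 0.05, the solid line is their median and the dotted line that of all tested probe sets. The median is 0.12 in S, -0.07 in ET3x1 and 0.03 in ET3x2.

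Several members of known function did not pass the test between strains. Rpl11, the partner of Rpl5, differed from S on low salt by 0.16 ± 0.08 in ET3x1 (adjusted p = 0.155) and 0.11 ± 0.08 in ET3x2 (adjusted p = 0.392). Rpl3, which lies near the peptidyl transferase centre, differed by 0.11 ± 0.06 (adjusted p = 0.188) and 0.04 ± 0.06 (adjusted p = 0.683), and Rpl5 by 0.14 ± 0.10 (adjusted p = 0.303) and 0.05 ± 0.10 (adjusted p = 0.772). The tested genes were also counted by the tract at the listed start, with no test. On low salt in ET3x1, of 19 genes with the start in a run 4 were higher and 0 lower, with a median change of 0.11, and of 18 without 6 were higher and 2 lower, with a median of 0.15. In ET3x2 the counts were 2 higher and 1 lower of 19 and 3 higher and 2 lower of 18, with medians of 0.05 and 0.07. Over all tested probe sets 16.7% were higher and 10.1% lower in ET3x1, and 9.49% and 8.71% in ET3x2.

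Other genes of translation were counted on the same fit, 1 probe set a gene. On low salt 16.7% of all tested probe sets were higher and 10.1% lower in ET3x1, and 9.49% and 8.71% in ET3x2. The difference of the lists from these shares was not tested. Of 71 mitochondrial ribosomal protein genes 38 were higher and 0 lower in ET3x1 than in S on low salt, with a median of 0.24. In ET3x2 the count was 21 higher and 0 lower, with 0.20 as the median. Mrpl28 was at 0.64 ± 0.11 in ET3x1 and Mrpl22 at 0.53 ± 0.09 in ET3x2. These medians stood beside 0.14 and 0.05 for the cytosolic ribosomal proteins, a difference that was not tested. The latter were taken over all 44 tested probe sets, with Rpsa and Rpl13a counted more than once. Of 36 genes of ribosome assembly 13 were higher and 1 lower in ET3x1 (median 0.19) and 8 higher and 1 lower in ET3x2 (median 0.12), led by Dkc1, the pseudouridine synthase of small nucleolar particles, at 0.76 ± 0.12 and 0.58 ± 0.12. Nucleolin, Ncl, was lower in ET3x2, by -0.44 ± 0.09.

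The low-salt counts below stand beside the same shares, 16.7% higher and 10.1% lower in ET3x1 and 9.49% and 8.71% in ET3x2. The difference from them was not tested. Of 36 translation factors 10 were higher and 0 lower in ET3x1, led by Eif6, which keeps the subunits apart, at 0.54 ± 0.11. In ET3x2 3 were higher and 6 lower, among them Eif4a2, an initiation helicase, at -0.40 ± 0.09 and Eef1d, an exchange factor of elongation, at 0.50 ± 0.12. Rack1, a scaffold on the small subunit, was higher by 0.46 ± 0.09 in ET3x1 (adjusted p = 0.000645) and 0.25 ± 0.09 in ET3x2 (adjusted p = 0.0442). Rack1, Eif4a2 and Eef1d also stood in the list of other mRNAs known for a TOP tract. Of its 14 genes 4 were higher and 1 lower in ET3x1 and 3 higher and 4 lower in ET3x2. Of 16 genes of mTORC1 control 5 were higher and 0 lower in ET3x1 and 3 higher and 1 lower in ET3x2. Sesn2, a leucine sensor that restrains mTORC1, was higher by 0.71 ± 0.12 and 0.46 ± 0.12, and Larp1, which binds the TOP tract, was lower in ET3x2, by -0.36 ± 0.07.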

How the data were processed

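Total RNA of single kidneys was labelled as biotinylated cRNA and hybridised to RAE230A and RAE230B chips, per the labels' protocols. The authors deposited log2 values, already normalized as near-equal array medians show; how probes were summarised and normalized, and with which build, stands in none of the sources used here. Symbols came from the platform annotation, and sequences from RefSeq (GRCr8). Control probe sets, those whose mean lay under the median of their chip (7.51 and 6.38) and copies on the second chip were left out, which left 15473. Each chip was fitted with limma 3.58.1 in R 4.3.3 (6 groups, intensity trend, 20 residual degrees of freedom), for 13 comparisons, two-sided, with Benjamini-Hochberg adjustment over both chips. Rats are the replicates, 0 array pairs held identical values, and the number of arrays limits the precision. The fit was tested on simulated data. Control ratios were compared with exact permutation tests (scipy 1.17.1).

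The members, gene lists and alternatives were chosen with earlier results of these data known. Named are up to 8 called member genes each way for each congenic strain against S and for salt, and up to 4 elsewhere, each by its most significant probe set, and a few genes whatever their value (Rps6, Rplp0, Rpl3, Rpl5, Rpl11) and up to 3 each way from other lists. Rpl12, Rpl41, Rpl27a, Rps29, Rps16 and Rpl13a on low salt and Rpl7a in ET3x2 were chosen after their values were seen. So were Rps28, Rpl39, Rpsa and Rps15 where not called, and the second probe sets. Alternatives were quantile normalization, centred medians, other filters, no trend, array weights, the Gapdh, beta-actin and bioD minus bioC measures as covariates, the compared groups alone, plain probe sets, 1 probe set per gene, probe sets of several symbols, and leaving out rats.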

Additional observations from a re-analysis of the deposited data

Results flagged for a closer look

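Of 162 groups of rats examined over the named members and the per-rat median, 8 held a rat far from the others of its group, and chance alone sets apart about 1 in 20 groups. ET3x1 rat 1 on low salt was the lowest for Rpl18 (12.14, next 12.48) and for Rps9 (11.87, next 12.00). S rat 1 on low salt was the lowest for Rpl41 (12.25, next 12.69) and for Rps28 (10.72, next 10.95). ET3x2 rat 4 on low salt was the lowest for Rpl5 (12.00, next 12.20), and ET3x2 rat 3 on high salt was the lowest for Rpl7a (12.96, next 13.16). ET3x1 rat 2 on low salt was the lowest for Rps16 (12.36, next 12.41), and ET3x2 rat 2 on high salt was the highest for Rps28 (11.37, next 11.14).

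The salt response differed between ET3x1 and S for Rpl5 (-0.48), Rps28 (-0.49) and Rpsa (-0.52 for 1371189_x_at and -0.71 for 1388244_s_at), by limma's interaction term. The plain Rpsa probe set 1367569_at was not called (adjusted p = 0.0580). These calls were lost with the Gapdh ratio or the bioD minus bioC difference as a covariate. In the 26 fits without 1 rat, those of Rpl5, Rps28 and Rpsa (1371189_x_at) were lost in 12, 2 and 9.

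The control probe set for 5S ribosomal RNA, outside the comparisons above, was higher by 0.21 in ET3x2 than in S rats on low salt (6.47 to 6.68 against 6.36 to 6.41, exact permutation p = 0.0159 and 0.0808 after adjustment over 28 tests).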

How the results depend on the processing

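None of the 57 named changes reversed under any of 11 other settings that gave a value or when any of the 26 rats was left out, and 23 kept their call throughout. Among these were Rps15 and Rpsa over both diets in each congenic strain, Rplp0 and Rps28 in ET3x1, and Rpl39 in ET3x2. On high salt alone, however, Rps28 in ET3x1 (-0.02 ± 0.09) and Rpl39 in ET3x2 (-0.002 ± 0.072) lay near S and were not called. Counts of called members moved by over 1.5 times as follows. With probe sets of several symbols added, ET3x2 against S went from 13 to 20, ET3x1 against S from 14 to 24, ET3x2 against ET3x1 from 5 to 9, salt over 3 strains from 4 to 7 and ET3x1 against S on low salt from 15 to 35. Quantile normalization gave 8 for ET3x2 against ET3x1, 0 for salt in S, 8 for salt in ET3x1 and 7 for ET3x1 against S on high salt. Array weights gave 8 for salt over 3 strains, 8 for salt in S, 12 for salt in ET3x1, 9 for ET3x1 against S on high salt, 12 for the salt response of ET3x1 minus S, and 1 each for salt in ET3x2, ET3x2 against S on high salt and the salt response of ET3x2 minus S. The Gapdh ratio gave 3 for ET3x2 against ET3x1, 5 for ET3x2 on low salt and 0 for salt over 3 strains, salt in ET3x1, ET3x1 on high salt and the ET3x1 interaction. The beta-actin ratio gave 0 for salt over 3 strains, 1 for salt in S, in ET3x1 and in ET3x2 and for ET3x1 on high salt, and 7 for the ET3x1 interaction. The bioD minus bioC difference gave 0 for salt in S, salt in ET3x1, ET3x1 on high salt and the ET3x1 interaction, and 4 for ET3x2 on low salt. No filter gave 2 for salt over 3 strains and for the ET3x1 interaction, and the brightest 25% gave 4 for salt in S. Only the compared groups gave 0 for salt in S, 8 for salt in ET3x1 and 2 for ET3x2 on low salt. Plain probe sets gave 1 for salt in ET3x1 and 2 for the ET3x1 interaction, and 1 probe set per gene 2 for both. Without S rats 1 and 2 on high salt, salt in S and the ET3x1 interaction gave 0 and ET3x1 on high salt 1. The cause was not tested, except that plain probe sets and 1 per gene count fewer and those of several symbols more.

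Leaving out each rat in turn gave 8 to 16 for ET3x2 against S, 13 to 16 for ET3x1 against S, 4 to 6 for ET3x2 against ET3x1, 2 to 7 for salt over 3 strains, 1 to 8 for salt in S, 0 to 8 for salt in ET3x1, 0 to 1 for salt in ET3x2, 4 to 12 for ET3x2 on low salt, 0 to 1 for ET3x2 on high salt, 12 to 17 for ET3x1 on low salt, 1 to 5 for ET3x1 on high salt, 0 to 7 for the ET3x1 interaction and 0 to 0 for that of ET3x2. No paired analysis was possible because the labels give no shared replicate numbers. Probe sets near the chip median, such as that of Rpl39l1, had little signal over background.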
